A study of Mus musculus with 2 samples.

Results

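Hnf4a ChIL-seq summits were examined at 10 mouse genes that handle iron, haem and other metals: Trf, Tfr2, Hamp, Hp, Hpx, Cp, Slc40a1, Mt1, Mt2 and Ftl1. They were taken by name from the 21887 protein-coding genes on standard chromosomes of the RefSeq table for GRCm38.p6, the assembly of mm10, and all 10 were found in it. A summit was assigned to a gene if it lay inside the gene or within 50 kb of either end, and summits of the replicates within 100 bp of each other were taken as 1 shared site. ChIL-seq is an antibody-guided assay in which transposase inserts a T7 promoter beside the bound protein, so that DNA near that protein is transcribed in place and sequenced. The cells were iHepCs, hepatocyte-like cells derived from C57BL/6J embryonic fibroblasts of WT genotype, in which a retroviral vector forced the expression of Foxa2 and Hnf4a. They were cultured with insulin, dexamethasone (100 nM), hepatocyte growth factor (20 ng/ml) and epidermal growth factor (20 ng/ml). The single group held 2 biological replicates, both from the same numbered lot of cells by their peak names, and no untreated or antibody-free samples were analysed here. The labelled cell type could not be checked against marker expression, since the lists hold only summit positions and scores, and because Hnf4a was supplied by a vector, its level may differ from that of hepatocytes.

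Hepatocytes are the main source of the plasma proteins that carry iron and clear haem, and they set body iron through the hormone hepcidin. Transferrin carries ferric iron in plasma, transferrin receptor 2 senses it at the hepatocyte surface, and hepcidin binds the iron exporter ferroportin and causes its degradation. Metallothioneins are small cysteine-rich proteins that bind zinc and copper, and their genes are induced by metals through MTF1, which binds metal response elements, and by glucocorticoids. Hnf4a is a nuclear receptor that binds direct repeats of a short half-site spaced by 1 base and is active at many hepatocyte genes.

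The deposited lists held 21283 summits in replicate 1 and 24097 in replicate 2. Every summit comes as 1 base of mm10 and a score from the authors, taken here as the −log10 q-value of its peak. The median score was 7.32 for replicate 1 and 6.67 for replicate 2. The lists do not give read depth, so a missing summit may mean only that a peak stayed below the authors' threshold.

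All 10 genes had at least 1 summit of each replicate, as did 70.2% of all coding genes for replicate 1 and 73.4% for replicate 2. A shared site was found for 6 of the 10, Trf, Tfr2, Hamp, Cp, Mt1 and Mt2, against 47.9% of all coding genes. The genes held 25 summits of replicate 1, 23 of replicate 2 and 11 shared sites, with those in reach of more than 1 gene counted once. Mt1 and Mt2, which lie side by side on chromosome 8, shared the same 4 sites, and Trf had 3. Hp, Hpx, Slc40a1 and Ftl1 had summits of each replicate but none within 100 bp of each other. The plot of summits along the loci shows these positions and scores.

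**Figure D1:**
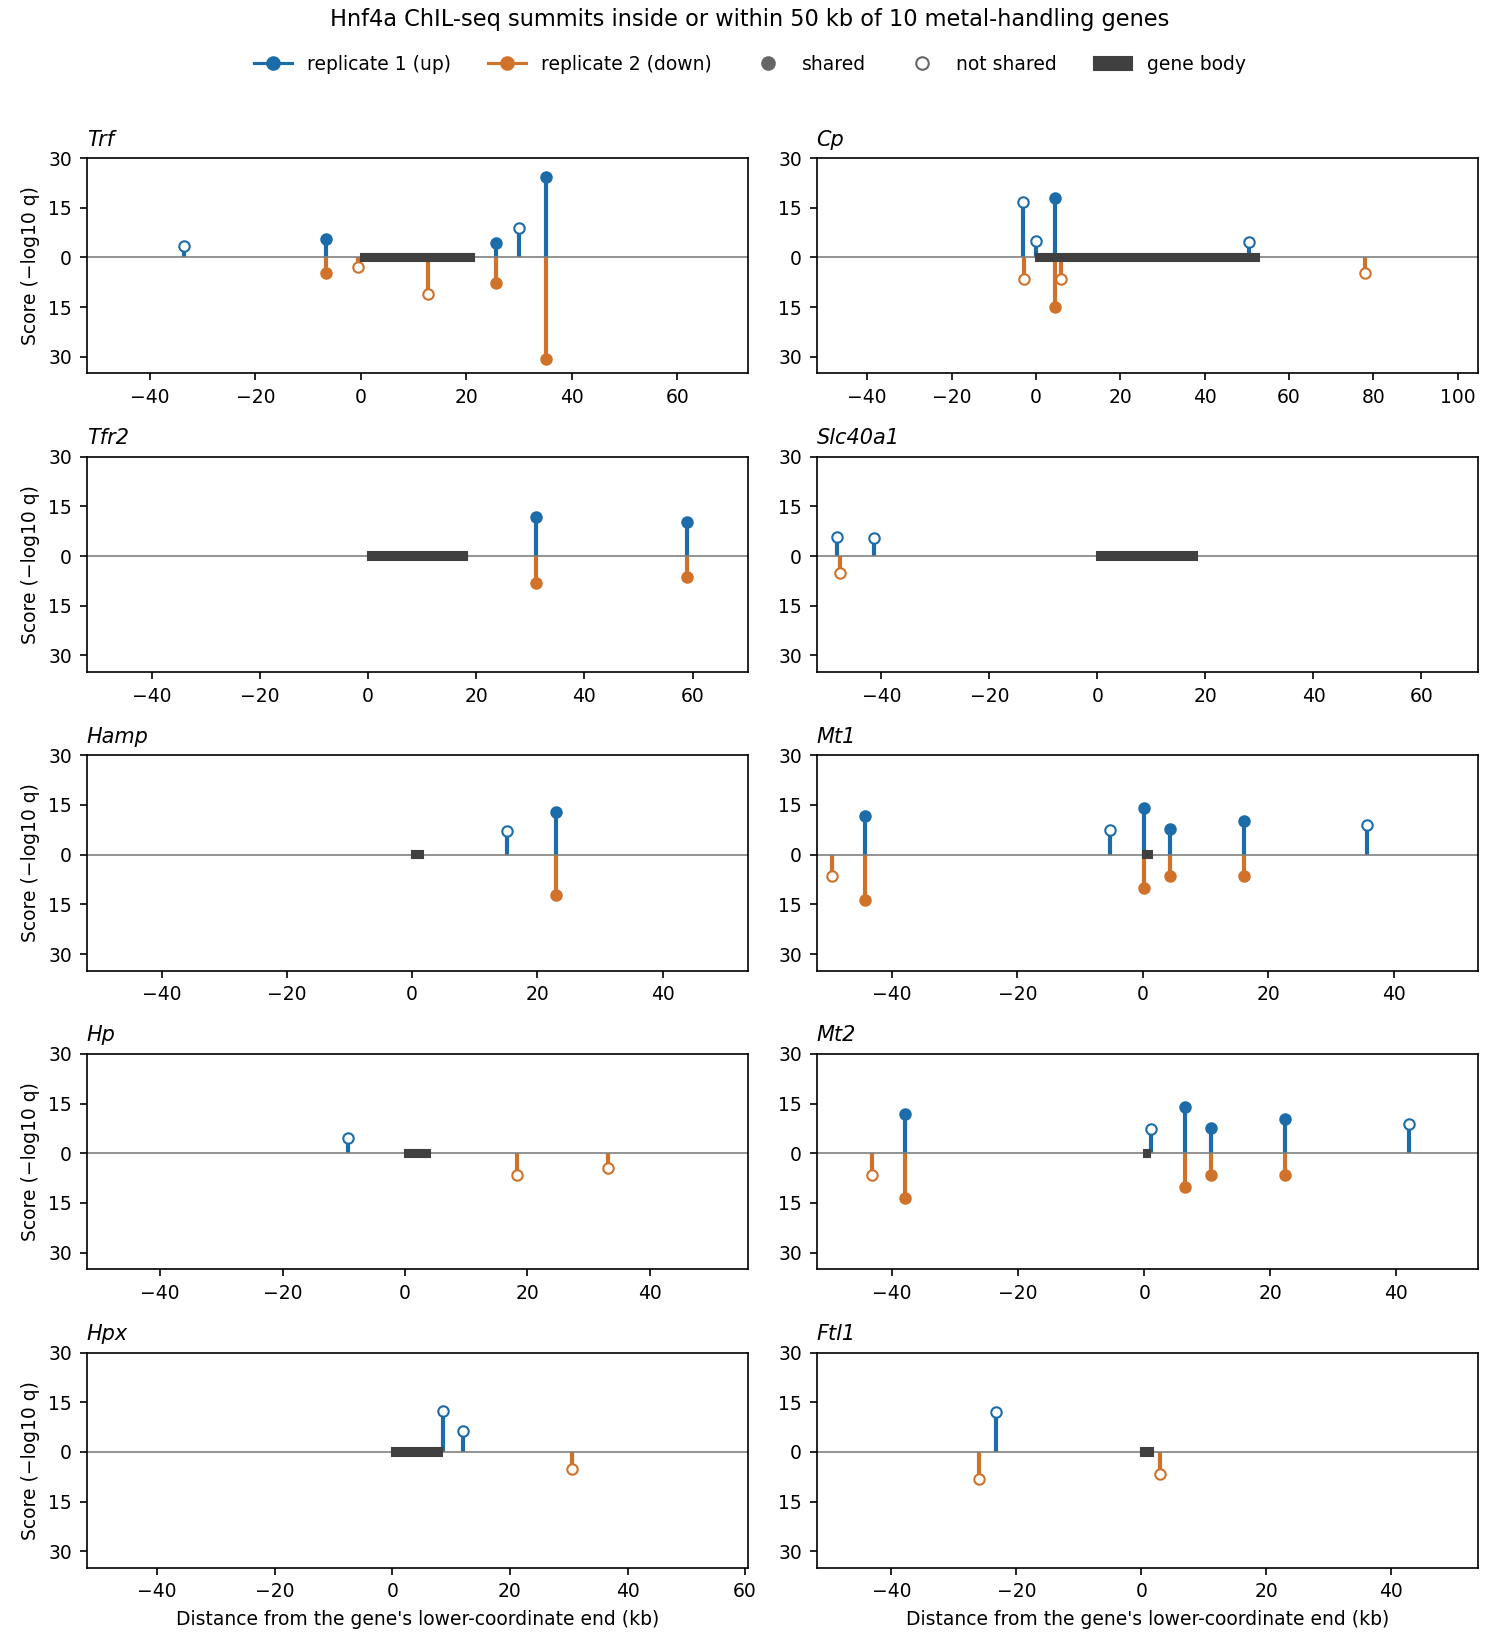
Summits inside or within 50 kb of each of the 10 genes, by distance from the end of the gene with the lower coordinate (horizontal axis, kb). Bars show the authors' score, taken as −log10 q, upward for replicate 1 and downward for replicate 2. Filled circles mark shared sites and open circles the other summits. The highest bars of both replicates are those of the shared site beside Trf, with 24.2 in replicate 1 and 30.8 in replicate 2.

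The promoter table of RefSeq (GRCm38.p6) held windows of 300 bases, 250 before to 50 after an annotated start, for 7 of the 10 genes, with none for Trf, Hp and Slc40a1. The windows printed here are those of Mt1, Hpx and Cp, which held summits, that of Mt2 for comparison with its neighbour, and those of the predicted genes Gm39228 and Gm42190, which cover further summits beside Mt1 and Cp. A further window of Cp, chr3:19956999-19957298, held the same summit as the printed one and is not shown. Capitals mark letters of the motifs searched on both strands. These were the HNF4 core CAAAGTCCA, the direct repeat core CAAAGGTCA, the relaxed form CAAAGNNCA, FOXA (TGTTTAC), AP-1 (TGANTCA), C/EBP (TTGCNNAA), STAT (TTCNNNGAA) and the metal response element cores TGCGCNC and TGCACNC. CAAAGTCNA was added after the sequences had been read. CAAAGTCCA is a special case of both CAAAGNNCA and CAAAGTCNA, and CAAAGGTCA is one of CAAAGNNCA.
Mt1, chr8:94178839-94179138, plus strand: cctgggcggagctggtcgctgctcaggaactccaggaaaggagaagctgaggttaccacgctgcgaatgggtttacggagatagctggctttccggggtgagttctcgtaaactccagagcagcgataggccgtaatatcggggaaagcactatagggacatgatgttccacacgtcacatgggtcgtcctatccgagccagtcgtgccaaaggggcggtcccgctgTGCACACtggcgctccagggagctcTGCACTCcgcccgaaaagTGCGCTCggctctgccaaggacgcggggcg
Mt2, chr8:94172368-94172667, plus strand: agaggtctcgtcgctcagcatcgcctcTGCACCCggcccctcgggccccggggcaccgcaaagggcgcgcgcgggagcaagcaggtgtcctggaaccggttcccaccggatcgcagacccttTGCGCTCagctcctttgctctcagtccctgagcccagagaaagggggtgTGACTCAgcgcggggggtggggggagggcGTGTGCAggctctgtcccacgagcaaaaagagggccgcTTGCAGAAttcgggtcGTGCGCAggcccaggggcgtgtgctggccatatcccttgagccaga
Gm39228, chr8:94183169-94183468, plus strand: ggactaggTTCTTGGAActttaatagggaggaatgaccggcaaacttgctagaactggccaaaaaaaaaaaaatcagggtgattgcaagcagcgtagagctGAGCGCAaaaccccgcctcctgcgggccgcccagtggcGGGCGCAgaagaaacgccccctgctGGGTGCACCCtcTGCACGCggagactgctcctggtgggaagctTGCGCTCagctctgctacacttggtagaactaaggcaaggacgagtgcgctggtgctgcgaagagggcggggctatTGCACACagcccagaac
Hpx, chr7:105600067-105600366, minus strand: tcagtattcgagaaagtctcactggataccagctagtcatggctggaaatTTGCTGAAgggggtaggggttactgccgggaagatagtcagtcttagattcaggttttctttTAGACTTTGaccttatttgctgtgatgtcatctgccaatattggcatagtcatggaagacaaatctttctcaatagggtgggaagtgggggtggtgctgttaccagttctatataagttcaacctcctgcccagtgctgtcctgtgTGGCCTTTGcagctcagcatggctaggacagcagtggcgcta
Cp, chr3:19956804-19957103, plus strand: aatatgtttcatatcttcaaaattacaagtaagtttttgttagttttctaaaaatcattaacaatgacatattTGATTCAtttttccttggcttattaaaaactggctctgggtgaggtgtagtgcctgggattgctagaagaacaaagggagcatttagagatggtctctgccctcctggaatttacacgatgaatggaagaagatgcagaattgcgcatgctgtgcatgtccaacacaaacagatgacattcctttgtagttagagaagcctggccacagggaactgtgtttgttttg
Gm42190, chr3:19953905-19954204, minus strand: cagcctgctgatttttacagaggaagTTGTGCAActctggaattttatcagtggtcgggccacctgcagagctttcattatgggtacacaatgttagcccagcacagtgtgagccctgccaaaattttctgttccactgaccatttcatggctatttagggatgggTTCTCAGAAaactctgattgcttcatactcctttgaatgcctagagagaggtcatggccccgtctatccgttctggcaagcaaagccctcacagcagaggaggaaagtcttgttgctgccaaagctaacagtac

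The transferrin gene Trf (chr9:103208876-103230286) had the best-scored site of the 10 genes. The site lay at chr9:103243981-103244002, 13705 bp beyond the higher-coordinate end of Trf, and scored 24.2 in replicate 1 and 30.8 in replicate 2. These scores ranked 707 of 21283 in replicate 1 and 283 of 24097 in replicate 2. The protein-coding gene 1300017J02Rik was nearer to it, at 6532 bp. A second shared site was 4252 bp beyond the same end of Trf, with no coding gene nearer, and scored 4.21 in replicate 1 and 7.79 in replicate 2. The remaining shared site (5.67 in replicate 1 and 4.7 in replicate 2) lay 6624 bp from the opposite end of Trf and 187 bp from Srprb, which encodes a subunit of the signal recognition particle receptor. Both of its summits fell within the promoter window of Srprb, at 196 bases (replicate 1) and 178 bases (replicate 2) before the start.

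Trf also had summits of a single replicate. In replicate 2, a summit inside the gene at 103221540 scored 11.2 and another 515 bp from the lower-coordinate end scored 2.98. In replicate 1, summits lay 8586 bp beyond the higher-coordinate end (8.76) and 33638 bp beyond the lower one, inside the small GTPase gene Rab6b (3.43). The summit inside Trf therefore had no counterpart in replicate 1, although its score was well above the median of its list.

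The metallothionein genes had the most shared sites. At Mt1 (chr8:94178883-94180327) a shared site lay at the annotated start of the promoter window, 94179089, which is inside the gene span. Its summit was 58 bases before that start in replicate 1 (score 14.1) and 5 bases after it in replicate 2 (10.1). Mt1 was the only one of the 7 members with a promoter window whose window held summits of both replicates, a state found for 6.1% of the 17492 coding genes in the table. The Mt1 window held 3 metal response element cores, at 23 to 17 bases before the start and at 2 to 8 and 20 to 26 bases after it, and the replicate 2 summit fell in the second of these. Such cores are common: TGCGCNC was found in 15.4% and TGCACNC in 12.6% of all 32851 promoter windows. Among the 1235 windows with summits of both replicates, the shares were 25.5% for TGCGCNC and 11.5% for TGCACNC. The window held no letters of CAAAGTCCA, CAAAGGTCA or CAAAGNNCA.

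Mt2 (chr8:94172618-94173567) differed from its neighbour in where the summits fell. Its promoter window held 4 metal response element cores, 1 AP-1 and 1 C/EBP match, and no summit of either replicate. A summit of replicate 1 lay 164 bp beyond the end of Mt2 (7.42) and had no counterpart in replicate 2. The shared site at the start of Mt1 was 5495 bp from Mt2, downstream of it.

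The other 3 shared sites of the metallothionein locus lay outside both genes. Downstream of Mt1 there was 1 at 2926 bp (7.77 in replicate 1 and 6.43 in replicate 2) and 1 at 14645 bp (10.3 in replicate 1 and 6.5 in replicate 2). The nearer of them lay in the window of Gm39228, which held 7 metal response element cores, counting overlapping matches, and a STAT match. The site with the best score in replicate 2 was 37993 bp upstream of Mt2 and 2579 bp from Mt4, a metallothionein of stratified epithelia, and scored 11.8 in replicate 1 and 13.6 in replicate 2. Summits of replicate 1 alone lay inside the nucleoporin gene Nup93 (8.89), and of replicate 2 alone 7809 bp from Mt4 (6.5). Mt1 and Mt2 are not independent observations, since their windows cover the same 7 sites.

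The ceruloplasmin gene Cp (chr3:19956933-20009750) encodes a copper-containing ferroxidase of plasma, and it was the only member other than Mt1 with a shared site inside the gene. That site lay at 19961406 in replicate 1, with a score of 18.0, and at 19961464 in replicate 2, with 14.9, and Cp was its nearest gene. The replicates were 58 bp apart there, so the site is lost when only summits within 50 bp are taken as shared. Upstream of Cp a pair of summits 111 bp apart fell just outside the rule: that of replicate 1 was 2990 bp from the gene (16.6) and that of replicate 2 was 2879 bp from it (6.57). Both lay in the window of Gm42190, which held a C/EBP and a STAT match and none of the HNF4 letters.

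Cp further had summits without a counterpart. One of replicate 1 (5.09) lay in its promoter windows, 26 bases before the start of the printed window and 221 bases before that of the other. The printed window held an AP-1 match 177 to 171 bases before its start. The other held a C/EBP match 70 to 63 bases before its own start. Another summit of replicate 1 lay where Cp and Hps3 overlap (4.78). Replicate 2 had a summit inside Cp at 19962908 (6.57) and one inside Hps3, 25298 bp downstream of Cp (4.71). Of the 8 summits at Cp, 4 of each replicate, the 2 of the shared site and the pair upstream of the gene stood within 111 bp of the other replicate.

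The haem scavenger hemopexin is encoded by Hpx (chr7:105591611-105600116), whose promoter held a summit in replicate 1. This summit at 105600278, 162 bases before the start, scored 12.2 and ranked 4155 of 21283. Replicate 2 had no summit within 10 kb of Hpx, and its only one in the window lay 22031 bp away, inside Trim3 (5.25). With or without one of replicate 2, a replicate 1 summit stood in a promoter window of 3 of the 7 members (Mt1, Hpx and Cp), against 11.1% of the 17492 coding genes. For replicate 2 it was 1 of the 7 members, Mt1, against 10.2% of genes. The Hpx window held CAAAGNNCA 8 to 16 bases after the start, which 6.36% of all windows hold. It also held CAAAGTCNA at 138 to 130 bases before the start, which 1.04% of windows hold, and this motif was added after the Hpx sequence had been read. Of the 1235 windows with summits of both replicates, 5 held CAAAGTCCA (0.405%) and 2 held CAAAGGTCA (0.162%), against 0.475% and 0.478% of all windows. CAAAGNNCA was held by 54 (4.37%) and CAAAGTCNA by 10 (0.81%), against 6.36% and 1.04% of all windows.

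**Figure D2:**
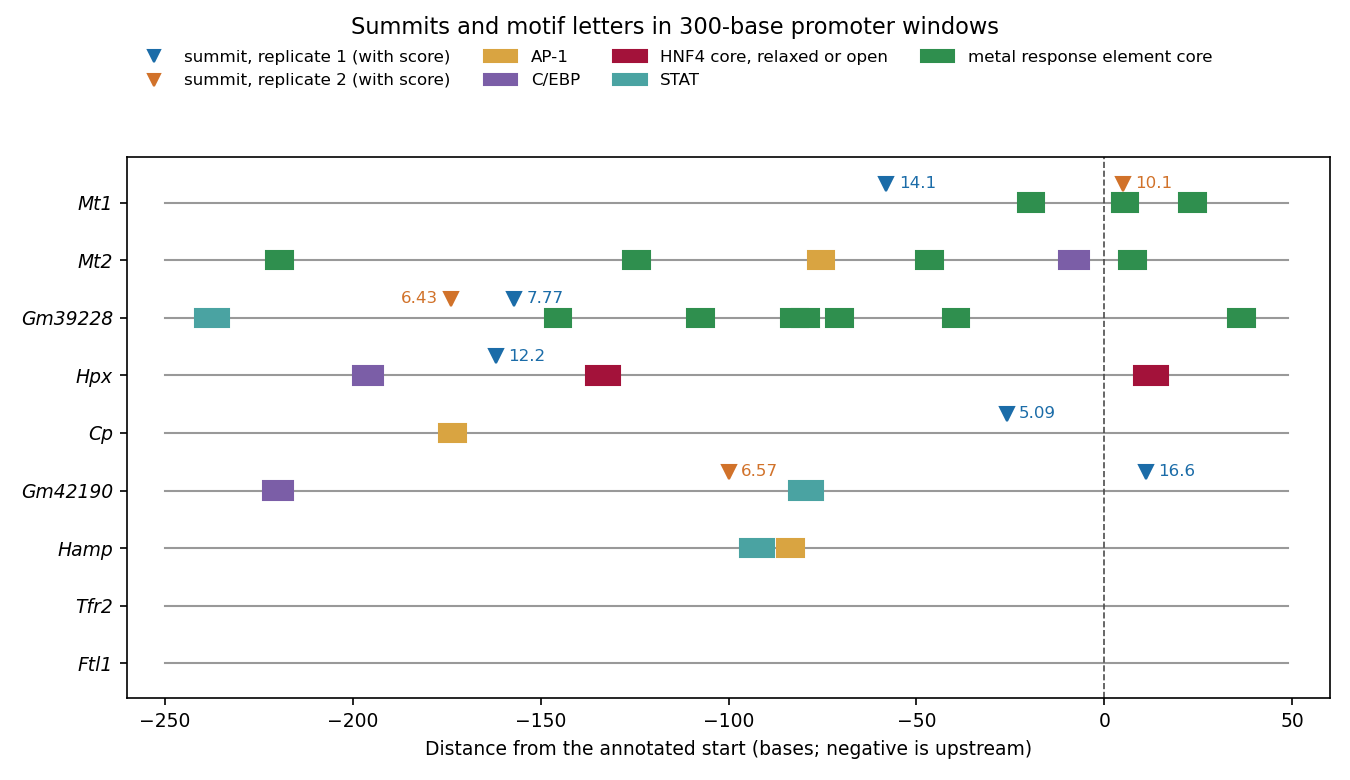
Summits (triangles, with their scores) and motif letters (boxes) in 300-base promoter windows, by distance from the annotated start in bases (horizontal axis). Where a gene has several windows, the one with the lowest coordinate is shown. Only Mt1 among the members has summits of both replicates, at 58 bases before and 5 bases after the start, while the windows of Mt2, Hamp, Tfr2 and Ftl1 have none.

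Haptoglobin, which binds free haemoglobin, is encoded by Hp (chr8:109575128-109579172), and no summit lay within 9 kb of it. A replicate 1 summit 9319 bp away (4.6) fell in the helicase gene Dhx38 and in the promoter window of Txnl4b. Replicate 2 had summits 14307 bp (6.43) and 29194 bp (4.42) beyond the other end, both inside Dhodh, an enzyme gene of pyrimidine synthesis. All 3 scores were below the medians of their lists.

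The hepcidin gene Hamp (chr7:30942368-30944029) had no summit within 10 kb in either replicate, and its promoter window held none. Its only shared site lay 21358 bp upstream, inside Lsr, a lipoprotein receptor gene, and scored 12.9 in replicate 1 and 12.1 in replicate 2. A replicate 1 summit 13497 bp upstream (7.25) lay 244 bp from Lsr and 575 bp from the transcription factor gene Usf2. Both positions are therefore nearer to other genes than to Hamp.

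Tfr2 (chr5:137569822-137588081) had 2 shared sites, both downstream and both nearer to other genes. The first was 12824 bp away in Mospd3, within the promoter window of that gene, and scored 11.7 in replicate 1 and 8.08 in replicate 2. Its summits were inside the gene span of Mospd3 but before the start of its promoter window, 137600708. They lay 207 bases (replicate 1) and 187 bases (replicate 2) before that start. The window held CAAAGNNCA at 168 to 160 bases before the same start and 1 TGCGCNC. The second was 40691 bp away, 351 bp from Lrch4, and scored 10.3 in replicate 1 and 6.2 in replicate 2. None of the 3 promoter windows of Tfr2 held a summit or a match to the motifs.

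The ferroportin gene Slc40a1 (chr1:45908070-45926532) had no summit within 40 kb. Replicate 1 had summits 41289 bp (5.55) and 48153 bp (5.78) beyond its lower-coordinate end and replicate 2 had 1 at 47570 bp (5.19), so that the nearest pair stood 583 bp apart. The nearest summits outside the 50 kb limit, at 70122 bp in replicate 1 and 70102 bp in replicate 2, scored 16.2 and 17.3. Both scored higher than the 3 summits inside the window.

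The ferritin light chain gene Ftl1 (chr7:45457944-45459886) had the most crowded window, with 10 coding genes. Replicate 2 had a summit 1052 bp upstream, 757 bp from the cell death gene Bax (6.68), and another 26030 bp away in Ruvbl2 (8.18). Replicate 1 had 1 summit, 23275 bp away (11.9), within the facing promoter windows of Ruvbl2 and the glycogen synthase gene Gys1. Summits 50583 bp (9.42 in replicate 1) and 50407 bp (6.18 in replicate 2) from Ftl1 lay just outside the window.

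Across the 11 shared sites, the replicates stood 17 to 63 bp apart, with a median of 21 bp. Scores ran from 4.21 to 24.2 with a median of 11.7 in replicate 1, and from 4.7 to 30.8 with a median of 8.08 in replicate 2. Over all 9193 shared sites the medians were 9.93 in replicate 1 and 9.61 in replicate 2. Replicate 1 had the higher score at 8 of the 11 sites and replicate 2 at 3, namely the best and the 4252 bp sites of Trf and the site near Mt4. The same count was not taken over all shared sites. Depth is unknown and may differ between the lists, so these scores describe ranks within a list and not a difference between the replicates. The plot of both replicates' scores places the 11 sites within the spread of all shared sites.

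**Figure D3:**
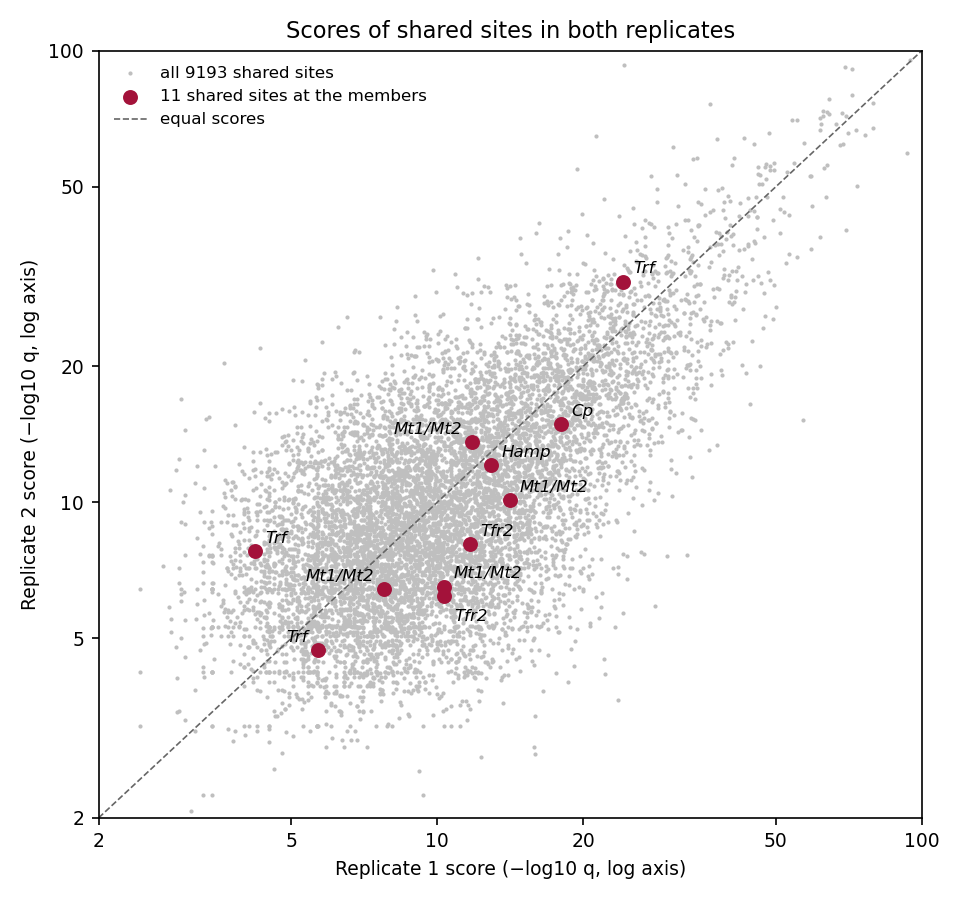
Score of each shared site in replicate 1 (horizontal axis) and replicate 2 (vertical axis), both taken as −log10 q and drawn on log axes. Red points are the 11 shared sites at the members, named by gene, grey points are the shared sites of the whole genome, and the dashed line marks equal scores. The 15 sites over 100 in either replicate are not drawn. The site beside Trf (24.2 and 30.8) is the highest of the red points, and 8 of the 11 lie below the dashed line.

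Of the replicate 1 summits at the 10 genes, 11 of 25 were in shared sites (44.0%, exact Clopper-Pearson 95% interval 24.4 to 65.1). In replicate 2 it was 11 of 23 (47.8%, interval 26.8 to 69.4). Over the whole lists the shares were 43.2% in replicate 1 and 38.2% in replicate 2. The intervals cover counting error only and treat summits as independent, although some lie in the same cluster. Both rest on the same 11 shared sites and are wide, so no conclusion is drawn from setting the whole-list shares beside them. Summits at the members without a counterpart had a median score of 6.81 in replicate 1 and 6.46 in replicate 2, and the highest was the one upstream of Cp (16.6). Over the whole lists, the medians without a counterpart were 6.02 in replicate 1 and 5.47 in replicate 2.

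Most of each window lay outside its gene, since windows reached 50 kb to each side and the median member length was 6.28 kb. The counts by distance below describe the members only. No such shares were taken over all coding genes, so they do not show that sites avoid these genes. Of all 37 sites, shared or not, 6 lay inside a member, 3 within 1 kb of an end, 9 at 1 to 10 kb and 19 farther away. Among the 11 shared sites, 2 lay inside a member (Mt1 and Cp), 3 at 1 to 10 kb and 6 farther away. A member was the nearest coding gene of 5 shared sites, which belonged to Mt1, Cp and Trf, and another gene was nearer to the other 6.

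The counts of members were read against all coding genes under the same rule. A shared site inside or within 50 kb was found for 6 of 10 members (60%), while 47.9% of all coding genes had one. A summit of replicate 1 was found for 10 of 10 members against 70.2% of all genes, and one of replicate 2 for 10 of 10 against 73.4%. Within 10 kb, 4 of 10 members (Trf, Cp, Mt1 and Mt2) had a shared site against 26.0% of all genes. There, 6 of 10 had a summit of replicate 1 against 46.4%, and 5 of 10 one of replicate 2 against 49.2%. Within 100 kb, 8 of 10 had a shared site against 62.6%, and all 10 had summits of both replicates, against 80.2% for replicate 1 and 83.1% for replicate 2. The window thus moved the members' and the background's share together. Members were the nearest gene of a shared site in 3 of 10 cases against 25.6%, of a replicate 1 summit in 6 of 10 against 43.5% and of a replicate 2 summit in 3 of 10 against 46.4%. The median number of shared sites within 50 kb was 1 over the members and 0 over all genes. For replicate 1 summits it was 2 over the members and 1 over all genes, and for replicate 2 summits it was 2 over both. These are descriptions of 10 named genes, of which Mt1 and Mt2 count the same sites, and no test was made of them.

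Site density was compared with that at coding genes in general, as a description with no test. The joined windows of the members covered 1.03 Mb and held 10.6 shared sites per Mb, against 4.51 per Mb in the joined windows of all coding genes. Without Mt1 and Mt2 the density was 7.55 per Mb. Gene content moved with this: the members' windows held a median of 5.5 coding genes against 4 for all genes, and its part in the density was not tested. The members were also shorter, with a median length of 6.28 kb against 17.2 kb.

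**Figure D4:**
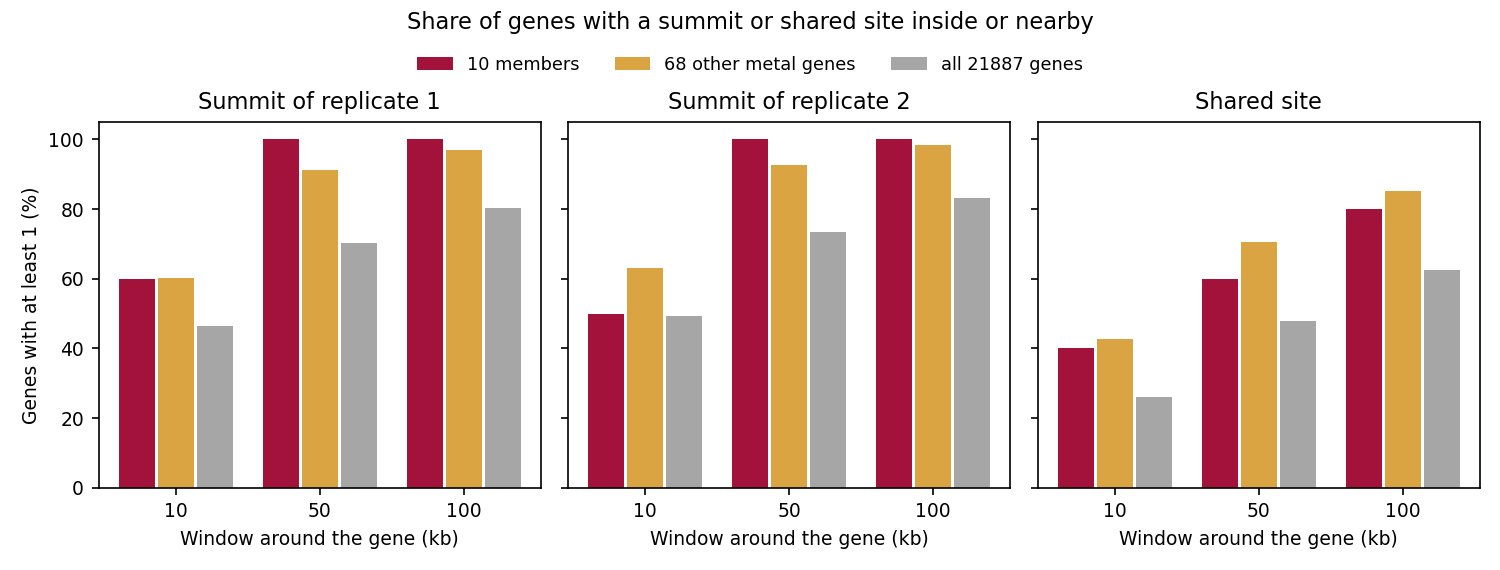
Percentage of genes with at least 1 summit of replicate 1, summit of replicate 2 or shared site inside the gene or within 10, 50 or 100 kb of its ends. Bars show the 10 members, 68 other iron, haem and metal genes and all coding genes. At 50 kb, a shared site was found for 60% of the members, 70.6% of the other metal genes and 47.9% of all genes.

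Further genes of metal metabolism, 68 in all, were taken from a list of 4 groups, each found in the gene table. Of these, 48 (70.6%) had a shared site within 50 kb and 29 (42.6%) within 10 kb, beside 47.9% and 26.0% of all coding genes. By group, the 50 kb count was 10 of 13 for iron transport and storage, 14 of 19 for control of hepcidin and iron, 15 of 20 for haem synthesis, export and breakdown, and 9 of 16 for zinc, copper and manganese. Some windows overlap those of the members: Mt3, Mt4 and Hamp2 lie in the same clusters.

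Among the 12 other genes with the best-ranked sites within 10 kb were metal transporters. Slc39a14, an importer of zinc, manganese and iron in hepatocytes, had a site inside the gene (21.2 in replicate 1 and 26.5 in replicate 2). Slc31a1, the copper importer, had a site inside its gene (25.7 and 19.2). A site 8216 bp from Ccs, the copper chaperone of superoxide dismutase, scored 22.4 and 23.8 but was nearer to Gm21992 and Rbm14. Cybrd1, a ferric reductase, had a site 3868 bp away that was nearer to Dcaf17 (15.6 and 12.4).

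Of the genes listed for the control of hepcidin and iron, 8 of 19 (42.1%) had a shared site within 10 kb. The share was 42.6% over all 68 other metal genes and 26.0% over all coding genes. Bmp6, the ligand that raises hepcidin expression when iron is high, had a site inside the gene (21.2 in replicate 1 and 14.3 in replicate 2). Id1, a target of the same signal, had a site at 2346 bp (16.7 and 15.2). Hjv, the hemojuvelin coreceptor, had 4 shared sites within 50 kb and none within 10 kb.

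Ferritin and haem genes completed the named set. Fth1, the heavy chain partner of Ftl1 in ferritin, had a shared site inside the gene (12.1 in replicate 1 and 12.6 in replicate 2), whereas Ftl1 had none within 50 kb. Ppox, an enzyme of haem synthesis, had a site 118 bp from its end (13.3 and 12.7). Lrp1, the receptor that takes up hemopexin with its haem, had a site at 996 bp (13.1 and 13.7). Hpx itself had no shared site within 50 kb, only summits of single replicates. Fth1 and Lrp1 were named because their sites ranked among the best, so setting them beside Ftl1 and Hpx is not a comparison. The siderophore-binding protein gene Lcn2 had a site at 2557 bp that was nearer to 1110008P14Rik (21.1 and 10.9). Mt4 had the site described for the metallothionein locus. Tfrc, which encodes the main transferrin receptor of most cells, was examined for comparison with Tfr2 after its values were seen, and had 2 shared sites within 50 kb and none within 10 kb.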

How the data were processed

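Hnf4a ChIL-seq was measured in 2 samples of 1 group. Per the submitters' processing notes, the authors used fastp 0.23.4, HISAT2 2.0.5 and MACS2 2.2.9.1 with build mm10. Each deposited list holds 1-bp summits called for 1 library, and the score is taken as the authors' −log10 q-value because q0.01 stands in the peak names and the lowest scores, 2.04 and 2.01, lie just above 2, the −log10 of 0.01. The sources used here do not say whether the authors used a control library, removed duplicates or filtered problem regions, and depth is unknown.

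Positions were made 1-based. Neighbouring summits no more than 100 bp apart were joined across the lists, and a site was shared if it held a summit of each replicate. Shared sites were placed by their midpoint. Genes came from the RefSeq table of GRCm38.p6, which has no strand. Strand was taken from the RefSeq promoter table (7 of 10 members). Motifs were matched letter by letter in its 32851 windows, some genes having several. No genome sequence was used, so sequence under other summits was not searched.

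There was no comparison between conditions and no test. The members and the gene lists were chosen with earlier results of these data known. All 10 members are named, with the nearest coding gene of their shared sites, and 12 other metal genes by the worse of both ranks of their best shared site within 10 kb, of which the values of 1 are not reported here. Genes named outside that rule are Hjv, Mt3, Hamp2, Tfrc and genes beside unshared summits, chosen after their values were seen. The erythroferrone gene of the list, Fam132b, was matched by synonym. Merging and window counts were tested on simulated data. Python 3.11.15, numpy 2.4.6, pandas 2.3.3, scipy 1.17.1 and matplotlib 3.10.9 were used. Alternatives are given in the closing section.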

Additional observations from a re-analysis of the deposited data

How the results depend on the processing

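The counts depended on the window around genes, on how many summits were kept and on what counted as a member's site. With 10 kb in place of 50 kb there were 5 shared sites at the members in place of 11, 13 summits of replicate 1 in place of 25 and 10 of replicate 2 in place of 23, 29 other metal genes with a shared site in place of 48, and 5698 of all coding genes (26.0%) in place of 10480. With 100 kb there were 17 shared sites and 37 summits of replicate 2 at the members, and Ftl1 and Slc40a1 gained shared sites while Hp and Hpx had none under any setting that asked for both replicates. With the 10000 best summits of each list there were 6 shared sites, 14 summits of replicate 1 and 9 of replicate 2 at the members. The same 6 members kept a shared site, while the share of all coding genes with one was 32.0% in place of 47.9%. Counting only sites nearest to a member left 5 shared sites at 3 members, and 25.6% of all coding genes were nearest to a shared site. With 1 replicate alone, the number of members with a site was 10 and 10, the number of coding genes 16075 without replicate 1 and 15358 without replicate 2, and that of other metal genes 63 and 62, since nothing had to be shared.

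The distance allowed for sharing moved the counts less: 9 shared sites at 5 members with 50 bp, where Cp and the start of Mt1 dropped out, and 12 at 6 members with 200 bp and with 500 bp, where the pair upstream of Cp was gained. Of all coding genes, 38.4% had a shared site with 50 bp, 52.8% with 200 bp and 54.5% with 500 bp, against 47.9% with 100 bp. At scores of 5 or more there were 9 shared sites at 6 members, against 43.9% of all coding genes with one, and Trf kept 1 of 3. No paired analysis was possible because there was 1 group and no test. Depth is unknown, so a member without a summit or a shared site shows only that none was listed.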
